A study of Mus musculus with 9 samples.

Results

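Oxidative phosphorylation is carried out by 5 protein complexes of the inner mitochondrial membrane, and 4 of them are built from subunits of both genomes. To describe these subunits in lupus-like kidneys, every gene on the mitochondrial chromosome was taken, together with every gene whose symbol begins with Nduf followed by a, b, c, s or v, with Uqcr, with Cox4 to Cox8 or with Atp5, and the genes Sdha, Sdhb, Sdhc and Sdhd. Of the 21935 genes in the count table, 109 matched and 106 of these had at least 10 reads summed over the 9 libraries. The 106 genes were 13 mitochondrially encoded subunits, 82 nuclear subunits, 8 complex I assembly factors (Ndufaf1 to Ndufaf8), the supercomplex factor Cox7a2l and 2 rows whose names end in -ps. The 3 genes left out were Cox8c with 0 reads, Cox7b2 with 1 read and a second row named Atp5o with 0 reads. A filter on low counts kept 105 of the 106 for testing, and the exception was mt-Atp8.

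RNA was sequenced from whole kidneys of female C57BL/6 mice, in 3 groups of 3 libraries. GKO kidneys came from Gsdmd-/- mice, which lack the pore-forming protein gasdermin D in all cells, PIL (pristane-induced lupus) kidneys came from wild-type mice given pristane, and Con kidneys came from wild-type mice given saline. By the study's protocol the injection was 0.5 ml into the peritoneum at 4 weeks of age, and kidneys were taken 31 weeks later. The labels list no treatment for GKO, whereas the study's text describes Gsdmd-/- mice given pristane. If the labels are right, GKO and PIL differ in pristane as well as in genotype, and these cannot be told apart. No other knockout group is analysed here. No label says that the 3 libraries of a group are 3 mice, so the p-values below measure the spread between libraries, which may be partly technical. The edgeR fit estimates this spread over all groups together, so its errors and p-values for GKO against Con also carry the spread within PIL.

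Some facts of the whole series touch these results. Each library held 13311063 to 16299328 counts, and 14069 genes were tested. Levels are given as CPM, which are counts scaled to a common library size. Gsdmd was at 2.06, 2.04 and 1.61 CPM in GKO, at 6.56, 20.1 and 10.7 CPM in PIL and at 7.05, 11.6 and 4.40 CPM in Con, so that no GKO library overlapped another group. 4 genes of the Y chromosome (Uty, Kdm5d, Ddx3y and Eif2s3y) together had 0 counts in every GKO and PIL library but 1854, 1882 and 3077 counts in the Con libraries, although all are labelled female. Differences from Con, in GKO as in PIL, therefore cannot be told apart from a difference in the sex of the mice. Kidney was recognisable by its tubule markers in every library, but the 3 PIL libraries stood far apart from each other. Summed over 10 proximal tubule markers they had 9354, 19345 and 26813 CPM, against 26738 to 28173 CPM in GKO and 35009 to 37017 CPM in Con. The Con excess over GKO was that of 1 gene, Kap: without it GKO had 18086 to 20904 CPM and Con 12801 to 16676 CPM. Summed over 6 leukocyte markers they had 739, 468 and 173 CPM, against 70.9 to 122 CPM in GKO and 49.4 to 126 CPM in Con. In whole tissue, fewer cells of a type and less RNA per cell cannot be told apart.

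Complex I passes electrons from NADH to ubiquinone, and complex II passes them from succinate. Complex III hands them to cytochrome c, complex IV passes them on to oxygen, and complex V uses the proton gradient that results to make ATP. The proteins encoded by the mitochondrial genome are hydrophobic subunits of complexes I, III, IV and V, and their genes are transcribed as long precursors inside the organelle. All other subunits are made from nuclear genes and imported, and the proximal tubule and the thick ascending limb are known for their dense mitochondria. The 13 mitochondrial genes comprised 7 of complex I, 1 of complex III, 3 of complex IV and 2 of complex V. The 82 nuclear genes comprised 36 of complex I, 4 of complex II, 8 of complex III, 17 of complex IV and 17 of complex V, with Ndufa4 and its relative Ndufa4l2 placed in complex IV.

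Sequence bears on how the values of these genes can be read, and is shown first. Nuclear chromosome 1 of the mouse carries a copy of part of the mitochondrial genome, annotated in GENCODE M21 as a row of pseudogenes at chr1:24611535-24616197 on the minus strand (GRCm38). A read from a transcript that is identical in both places cannot be placed by its sequence. To show how close the copies are, the first 90 bases of mt-Co2 (chrMT:7013-7102) and mt-Nd3 (chrMT:9459-9548) stand beside those of their copies Gm28661 and Gm28438. For contrast, 90 bases of mt-Cytb (chrMT:14205-14294), which lies outside the copied stretch, stand beside its relative Gm11410 on chromosome 4. Capitals mark the positions that differ within a pair.
mt-Co2: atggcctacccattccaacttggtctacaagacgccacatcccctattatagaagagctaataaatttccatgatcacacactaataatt
Gm28661: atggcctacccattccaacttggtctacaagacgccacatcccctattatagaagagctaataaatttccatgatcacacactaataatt
mt-Nd3: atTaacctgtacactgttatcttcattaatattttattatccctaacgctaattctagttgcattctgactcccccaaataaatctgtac
Gm28438: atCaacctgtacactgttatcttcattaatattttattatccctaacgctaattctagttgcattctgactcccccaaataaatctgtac
mt-Cytb: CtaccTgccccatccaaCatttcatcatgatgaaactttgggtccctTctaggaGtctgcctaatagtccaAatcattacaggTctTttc
Gm11410: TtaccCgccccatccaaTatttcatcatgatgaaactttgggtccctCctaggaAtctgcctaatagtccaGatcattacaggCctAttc
Over its 681 compared bases mt-Co2 had 0 mismatches with its copy, and mt-Nd3 had 1 over 345 bases. In mt-Cytb there were 8 in the window shown and 82 over 1143 bases, which is 92.8% identity.

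The level of the mitochondrial genes followed this split closely. Per length of transcript, the median over the 9 libraries was 31286 FPKM for mt-Co1, 19972 for mt-Cytb, 13837 for mt-Nd1, 13738 for mt-Nd2, 8640 for mt-Nd4, 5787 for mt-Nd5 and 3757 for mt-Nd6. None of these 7 genes is matched over its whole transcript by an annotated copy of at least 99% identity, the largest share being 63.6% in mt-Nd4 and the next 31.3% in mt-Co1. The 5 genes matched over 99% or more of their transcripts were far lower, with a median of 296 FPKM for mt-Co2, 177 for mt-Co3, 110 for mt-Atp6, 22.4 for mt-Nd3 and 11.5 for mt-Nd4l. No nuclear subunit exceeded the 7 high genes: Cox8a had the highest nuclear median at 1084 FPKM. The lowest of all was mt-Atp8, which lies between mt-Co2 and mt-Atp6 and had 15 reads in the 9 libraries together. No annotated copy met the same match for mt-Atp8, although at chrMT:7766-7969 it lies within the span of the genes with copies (chrMT:5328-11544). Copies outside the annotation were not searched for. How the counting treated reads that fit several places is not described in the sources used here, and the part of the copies in these levels was not tested. Values of mt-Co2, mt-Co3, mt-Atp6, mt-Nd3 and mt-Nd4l below are therefore uncertain as measures of mitochondrial RNA. The same holds in part for mt-Nd4 and mt-Co1, over the matched share of their transcripts.

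**Figure D1:**
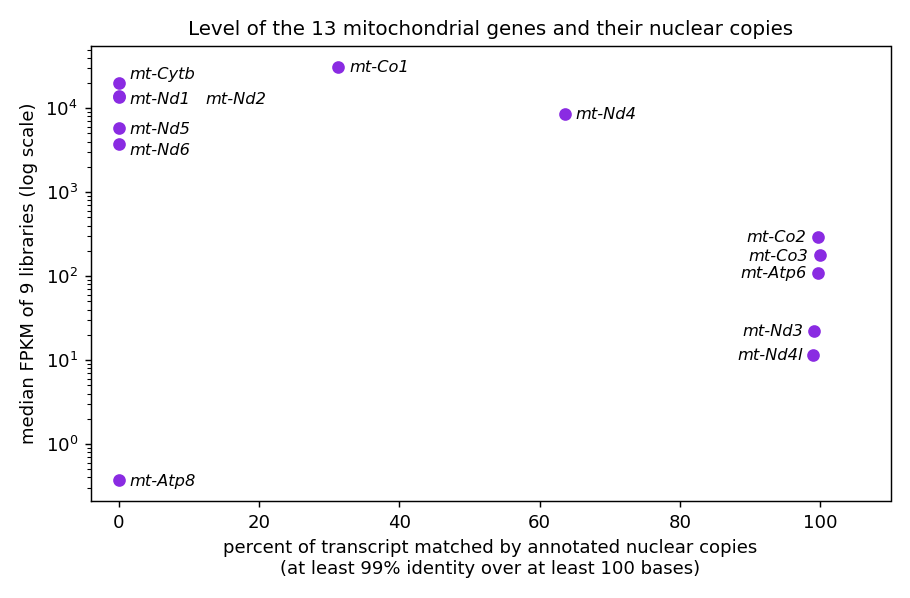
Median FPKM over the 9 libraries (log axis) of each mitochondrially encoded gene against the percentage of its transcript matched by annotated nuclear copies at 99% identity or more. Genes matched over 99% or more lie between 11.5 and 296 FPKM, the other genes except mt-Atp8 lie at 3757 FPKM or above, and mt-Nd1 and mt-Nd2 share 1 point.

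The promoters of the nuclear subunits were looked at next. These genes have no common operon, but many are known to share binding motifs for the factors NRF1, YY1 and ERR and for the ETS family. RefSeq windows of 300 bases (GRCm38.p6, 250 bases before the start and 50 after) were at hand for 67 of the 82 nuclear subunits, in 72 windows. The NRF1 letters, GCGCA followed by any base and GCGC, searched on either strand, were in 18 of these windows (25%), against 4.6% of all 32851 windows. The ETS letters CCGGAAG were in 17 windows (23.6% against 8.86%), the YY1 letters AANATGGCG in 10 (13.9% against 2.38%) and the ERR letters TCAAGGTCA in 2 (2.78% against 0.423%). At least 1 of the 4 motifs was in 54.2% of the subunit windows and in 14.6% of all windows, and no matches of different motifs overlapped in the subunit windows. The promoters printed here belong to genes whose levels are described below: Sdha (chr13:74350191-74350490, minus strand) with 3 NRF1 matches, Sdhd (chr9:50603800-50604099, minus strand) with 1 match each for NRF1, ETS and ERR, Atp5b (chr10:128083057-128083356, plus strand) with 1 YY1 match, and the partner genes Cox6b1 (chr7:30626065-30626364, minus strand), with 1 ETS match, and Cox6b2 (chr7:4753045-4753344, minus strand), with no match. Capitals mark the matches.
Sdha: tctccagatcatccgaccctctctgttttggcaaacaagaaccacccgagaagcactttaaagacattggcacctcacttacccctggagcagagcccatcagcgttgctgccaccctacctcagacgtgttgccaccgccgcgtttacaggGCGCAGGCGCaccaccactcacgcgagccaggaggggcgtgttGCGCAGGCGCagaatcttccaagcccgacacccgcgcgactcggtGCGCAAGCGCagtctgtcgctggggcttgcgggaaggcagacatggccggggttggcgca
Sdhd: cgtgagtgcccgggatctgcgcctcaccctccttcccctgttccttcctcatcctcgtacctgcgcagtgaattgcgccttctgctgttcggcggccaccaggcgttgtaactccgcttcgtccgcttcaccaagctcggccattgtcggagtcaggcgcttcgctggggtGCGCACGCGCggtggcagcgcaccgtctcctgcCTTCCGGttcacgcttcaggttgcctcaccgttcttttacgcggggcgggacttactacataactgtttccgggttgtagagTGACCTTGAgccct
Atp5b: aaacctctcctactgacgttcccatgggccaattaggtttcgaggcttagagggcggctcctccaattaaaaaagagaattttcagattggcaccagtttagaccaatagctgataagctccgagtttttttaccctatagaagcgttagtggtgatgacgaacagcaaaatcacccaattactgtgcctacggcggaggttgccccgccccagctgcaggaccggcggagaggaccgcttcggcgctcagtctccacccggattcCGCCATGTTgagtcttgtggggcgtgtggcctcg
Cox6b1: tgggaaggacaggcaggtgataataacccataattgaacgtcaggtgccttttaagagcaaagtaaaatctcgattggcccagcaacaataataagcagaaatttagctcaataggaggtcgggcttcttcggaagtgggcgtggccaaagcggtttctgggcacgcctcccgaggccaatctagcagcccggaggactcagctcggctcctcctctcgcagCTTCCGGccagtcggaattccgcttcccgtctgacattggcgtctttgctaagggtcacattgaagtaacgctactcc
Cox6b2: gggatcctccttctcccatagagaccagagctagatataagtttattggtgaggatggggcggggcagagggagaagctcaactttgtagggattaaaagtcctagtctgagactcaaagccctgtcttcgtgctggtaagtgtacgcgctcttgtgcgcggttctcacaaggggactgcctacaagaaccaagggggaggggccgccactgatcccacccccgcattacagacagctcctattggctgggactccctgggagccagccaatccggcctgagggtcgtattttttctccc
A match is a stretch of letters and no measured binding, and its absence from a window says only that these letters are not there.

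Taken over whole genomes, the mitochondrial subunits varied between libraries far more than the nuclear ones. Summed over the 13 mitochondrial genes, GKO kidneys had 131134, 139955 and 124158 CPM, PIL kidneys had 65961, 90622 and 133273 CPM, and Con kidneys had 111148, 124761 and 132968 CPM. The means were 131749 ± 7917 CPM in GKO, 96619 ± 34055 in PIL and 122959 ± 11021 in Con (SD, n = 3 each). Within the PIL group the highest library was 2.02 times the lowest, against 1.13 times in GKO and 1.20 times in Con. PIL-1 and PIL-2 lay below every other library, whereas PIL-3 lay within the GKO range and above the Con libraries. Over the 82 nuclear subunits the sums were 21987 ± 1190 CPM in GKO, 20841 ± 1018 in PIL and 23434 ± 987 in Con (SD, n = 3 each), and the highest PIL library was 1.09 times the lowest. Nearly all of the mitochondrial sum comes from mt-Co1, mt-Cytb, mt-Nd1, mt-Nd2, mt-Nd4, mt-Nd5 and mt-Nd6, each with 255288 or more reads over all libraries. The other mitochondrial genes had 15 to 26467 reads each, so the sums, shares and ratios say little about them.

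The ratio of the genomes within a library does not depend on how libraries are scaled. Mitochondrial over nuclear subunit counts came to 6.08, 6.00 and 5.89 in GKO, to 3.24, 4.49 and 6.05 in PIL and to 4.87, 5.08 and 5.80 in Con. All 3 GKO ratios lay above all 3 Con ratios, and the PIL ratios spanned from below the lowest Con library to within the GKO range. Mitochondrial subunits took 12.4% to 13.4% of all counts in GKO, 7.22%, 9.71% and 13.3% in PIL and 10.8% to 12.8% in Con. Nuclear subunits took 2.10% to 2.23% in GKO, 2.16% to 2.23% in PIL and 2.20% to 2.35% in Con. No test is given for these sums, because the genes were chosen with earlier results of these data known.

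**Figure D2:**
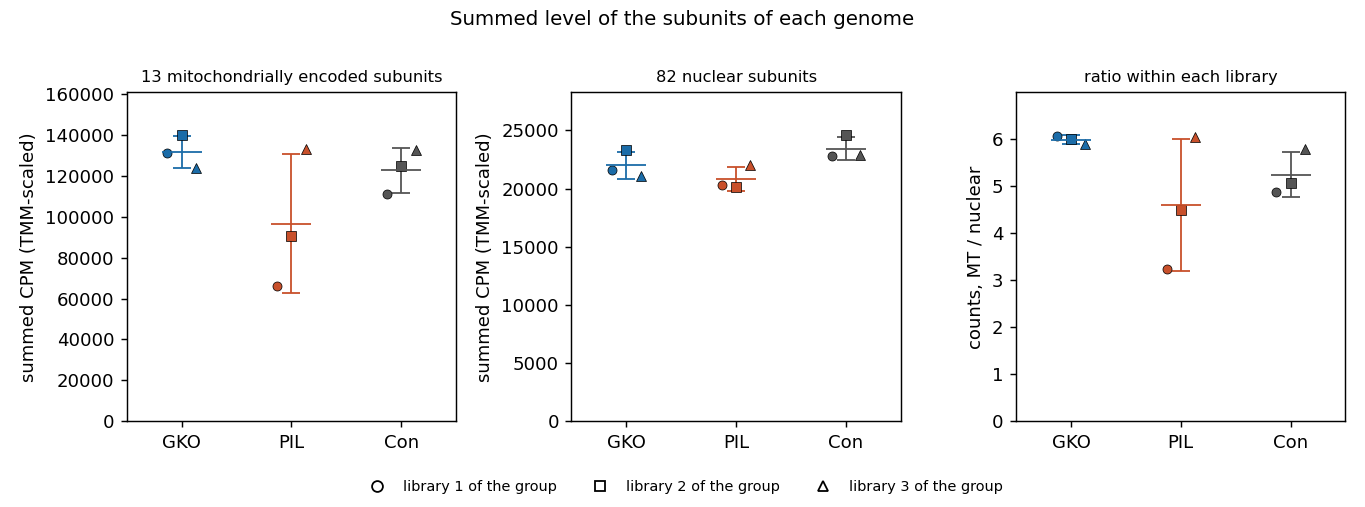
Summed CPM of the 13 mitochondrially encoded subunits (left) and the 82 nuclear subunits (middle), and their count ratio (right), in each library of GKO, PIL and Con. Bars are the mean and SD of 3 libraries. The mitochondrial sum spans 65961 to 133273 CPM within PIL, while the nuclear sum stays between 20166 and 22012 CPM there.

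No member passed edgeR's quasi-likelihood test at an adjusted p under 0.05 in any of the 3 comparisons. In PIL against Con, 0 of 105 members were called in either direction, where 4.48% of the 14069 genes were called higher and 3.14% lower. At an unadjusted p under 0.05 there were 2 higher and 14 lower members, against 15.4% and 12.2% of all genes. DESeq2 called 1 member higher (Cox6b2) and 8 lower (among them Atp5pb, Atp5b, Ndufa10, Uqcrfs1 and mt-Co3), against 8.41% and 6.18% of its genes, and limma-voom with library quality weights called 13 higher and 31 lower (22.8% and 21.4%). In GKO against PIL, 0 members were called, and 0% of all genes were called in either direction. At an unadjusted p under 0.05 there were 5 higher and 4 lower members, against 7.93% and 13% of all genes, while DESeq2 called 1 higher (mt-Atp6) and 0 lower (1.12% and 4.82%) and limma-voom 24 higher and 12 lower (23% and 22.8%). In GKO against Con, 0 members were called, against 1.55% of all genes higher and 1.46% lower, and unadjusted there were 0 higher and 7 lower (7.68% and 6.93%). DESeq2 called 0 there (2.8% and 2.66%), and limma-voom called 0 higher and 6 lower (8.19% and 7.46%). The limma-voom fit gave a weight of 6.24 to PIL-2 but only 0.245 to PIL-1 and 0.285 to PIL-3. Its PIL values therefore rest mostly on 1 library.

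Counted by groups that did not overlap, 3 members were higher and 20 lower in PIL against Con, where 13.4% and 11.7% of all genes were. Between GKO and PIL, 6 were higher and 9 lower (13.8% and 14.1% of all genes), and in GKO against Con 2 were higher and 12 lower (13.3% and 11.5%).

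By direction, the medians of the genomes stood apart in the comparisons with PIL. In PIL against Con, 12 of the 12 tested mitochondrial subunits had a negative log2 fold change (median -0.34, range -1.29 to -0.20), against 51 of 82 nuclear subunits (median -0.05) and a median of 0.01 over all 14069 genes. For GKO against PIL, all 12 were positive (median 0.42, range 0.17 to 1.10), against 35 of 82 nuclear subunits (median -0.04) and a median of -0.00065 over all genes. In GKO against Con, 7 of the 12 were positive (median 0.01) and 16 of 82 nuclear subunits were (median -0.09, against -0.01 over all genes). The first 2 comparisons share the PIL libraries, so their signs are not independent. The 12 genes also share precursor transcripts and are no 12 separate observations.

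**Figure D3:**
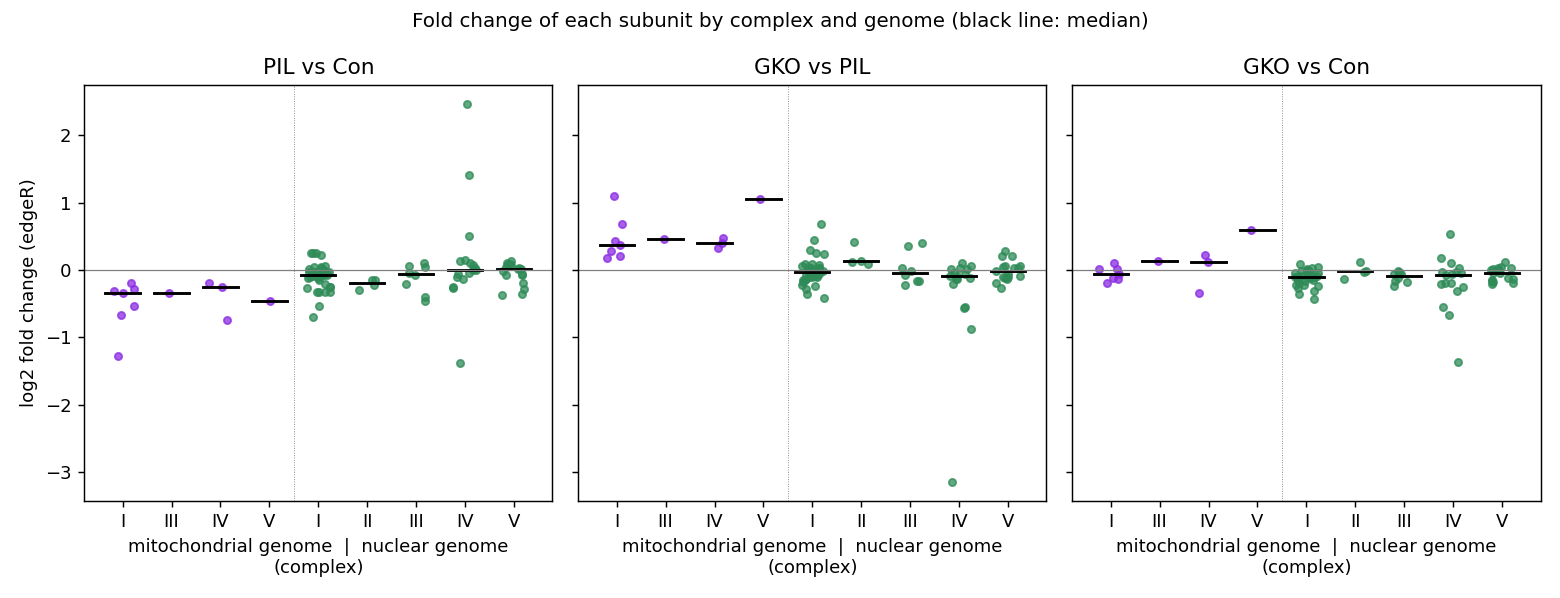
Log2 fold change (edgeR) of each tested subunit in PIL against Con, GKO against PIL and GKO against Con, by complex, with mitochondrial genes left and nuclear genes right of the dotted line. Black lines are medians. All mitochondrial points lie below 0 in PIL against Con and above 0 in GKO against PIL, while in those comparisons the nuclear points of complexes I, III, IV and V lie on either side of 0.

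Library PIL-1 was the lowest of all 9 libraries for each of the 12 tested mitochondrial subunits, and PIL-2 lay between PIL-1 and PIL-3 for 11 of them. Among nuclear subunits, PIL-1 was the lowest library for 14 and the highest for 18 of 82. When PIL-3 was left out, PIL against Con had 1 member called higher (Cox6b2) and 21 lower, of which 7 were mitochondrial and 14 nuclear, with 13.3% of all genes called higher and 12.4% lower. GKO against PIL then had 15 called higher, of which 7 were mitochondrial and 8 nuclear, and 1 lower (Cox6b2), with 10.1% of all genes called higher and 12.2% lower. Of the genes described one by one below, those called lower in PIL against Con without PIL-3 were mt-Nd1, mt-Nd2, mt-Nd3, mt-Nd5, mt-Nd4l, mt-Cytb, mt-Co3, Ndufs1, Ndufa10, Ndufb2, Ndufaf1, Sdha, Uqcrfs1, Uqcrc2, Atp5b and Atp5pb. Whether PIL-3 or the other PIL libraries are more typical of the PIL group cannot be told from 3 libraries. For the mitochondrial sum PIL-3 was the PIL library closest to GKO and Con, so leaving it out widens those differences by construction. PIL and Con also differ in Y-linked counts, so pristane and sex cannot be told apart in that comparison.

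Of the complex I subunits, mt-Nd5, part of the proton-pumping arm, had 11271, 11051 and 10734 CPM in GKO, 3359, 6184 and 10968 CPM in PIL and 9728, 8901 and 14030 CPM in Con. PIL-1 and PIL-2 lay below the other libraries and PIL-3 was close to the GKO libraries. Its log2 fold change was -0.67 ± 0.37 (SE) in PIL against Con (edgeR adjusted p = 0.267) and 0.69 ± 0.37 in GKO against PIL (edgeR adjusted p = 0.295). Without PIL-3 these became -1.20 (edgeR adjusted p = 0.0191) and 1.21 (0.0237), and without PIL-1 they became -0.35 and 0.36. mt-Nd1, which lies where ubiquinone binds, had 14064, 14123 and 11681 CPM in GKO, 7916, 10241 and 14736 CPM in PIL and 12244, 13824 and 15692 CPM in Con. The pumping subunits mt-Nd2 and mt-Nd4 had the same order of the PIL libraries, with 7324, 9362 and 14735 CPM and with 7442, 9378 and 12646 CPM there. In the other groups mt-Nd2 was at 13074 to 14929 CPM in GKO and 13372 to 16698 CPM in Con, and mt-Nd4 at 11933 to 13661 CPM in GKO and 11094 to 13215 CPM in Con. mt-Nd6, which alone among these genes is transcribed from the other strand, had 2254, 2001 and 1883 CPM in GKO, 1282, 1819 and 2216 CPM in PIL and 1818, 2167 and 2111 CPM in Con. PIL-1 was thus the lowest library for genes of either strand. mt-Nd3 (3.59 to 11.3 CPM) and mt-Nd4l (0.336 to 4.81 CPM) were too low for a close reading. With 6, 16 and 47 reads in PIL, mt-Nd4l had the most extreme fold change of the 12, -1.29 ± 0.66 in PIL against Con (edgeR adjusted p = 0.233, and -2.57 with 0.00865 without PIL-3).

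**Figure D4:**
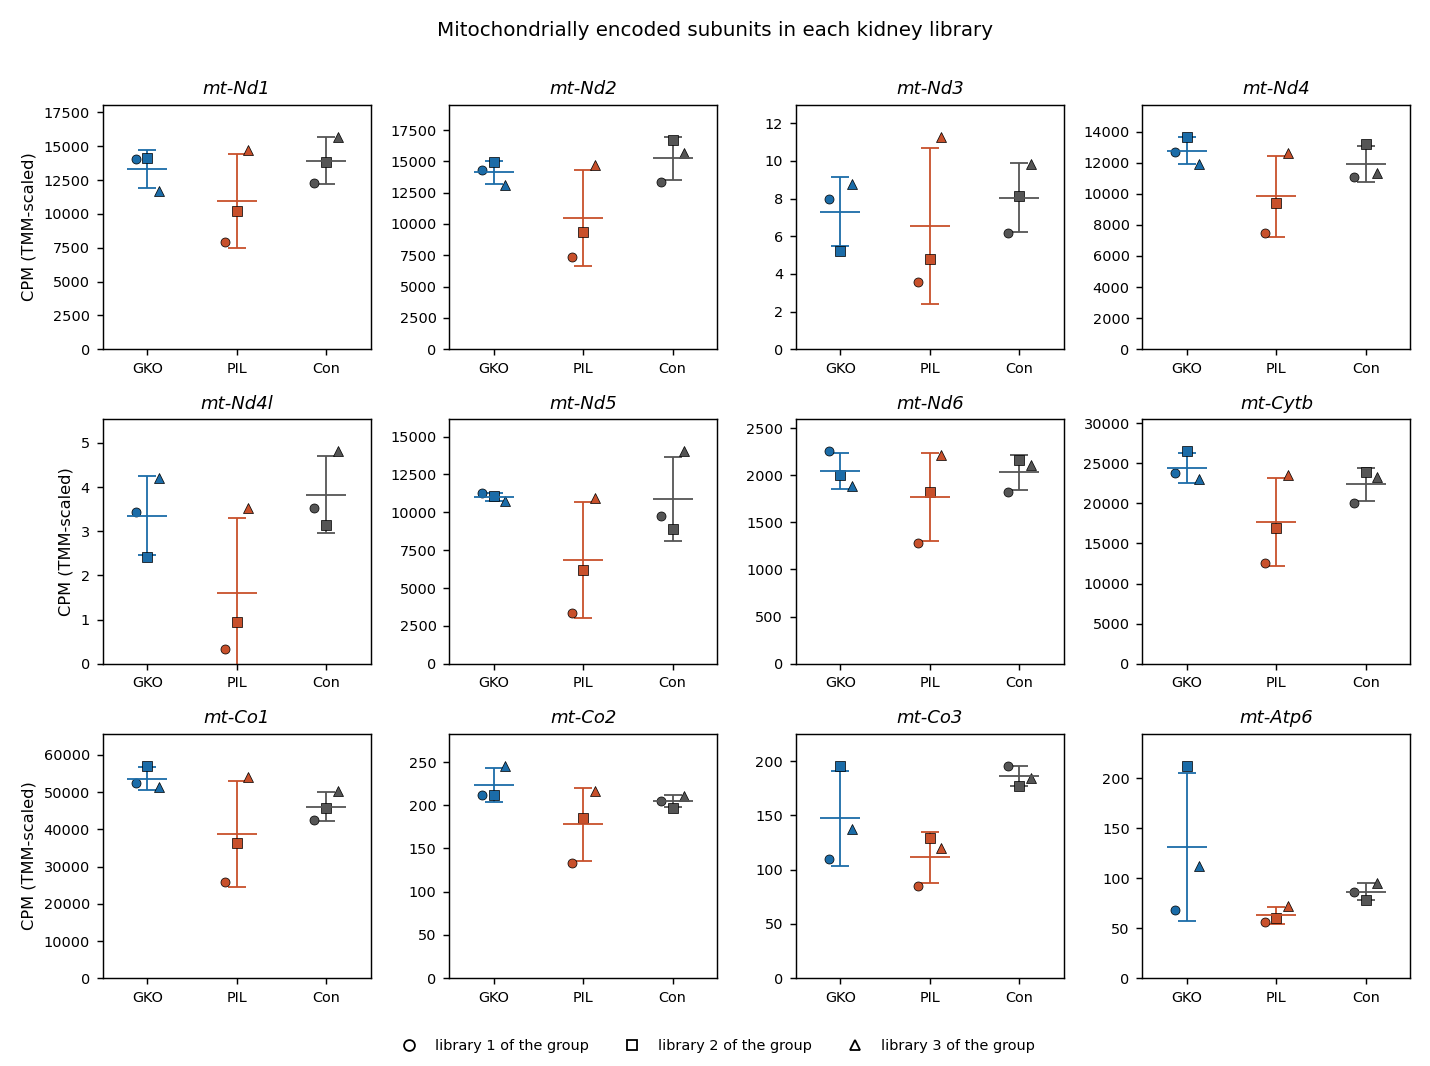
CPM of the 12 tested mitochondrially encoded subunits in each library (linear axes from 0). Symbols mark the library of a group, bars are mean and SD of 3 libraries. PIL-1, the circle of the middle group, is the lowest library in every panel.

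The nuclear core subunits of complex I, which carry its flavin and iron-sulphur clusters, were compared with the accessory subunits around them. In PIL against Con the 7 core subunits were all negative (median -0.12), against 20 of the 29 accessory subunits (median -0.03), and none was called. Ndufs1, the largest core subunit, had 231, 250 and 234 CPM in GKO, 122, 160 and 244 CPM in PIL and 261, 213 and 289 CPM in Con. As for the mitochondrial genes, PIL-1 and PIL-2 were low and PIL-3 was not. Its log2 fold change was -0.54 ± 0.23 in PIL against Con (edgeR adjusted p = 0.166) and 0.44 ± 0.23 in GKO against PIL (edgeR adjusted p = 0.283). Leaving out PIL-3 gave -0.86 (edgeR adjusted p = 0.00909) and 0.77 (0.0184), and leaving out PIL-1 gave -0.34 and 0.24. Ndufa10, an accessory subunit, had the lowest p of complex I in PIL against Con: it was at 257, 277 and 273 CPM in GKO, 257, 241 and 257 CPM in PIL and 316, 330 and 298 CPM in Con. All GKO and PIL libraries lay below all Con libraries, with a log2 fold change of -0.32 ± 0.10 for PIL against Con (edgeR adjusted p = 0.0803) and -0.23 ± 0.10 for GKO against Con (edgeR adjusted p = 0.339). In GKO against Con the lowest p was that of Ndufv3, next to the flavin-binding subunit, at 132, 121 and 117 CPM in GKO, 138, 131 and 130 CPM in PIL and 161, 162 and 137 CPM in Con (log2 fold change -0.32 ± 0.11 in GKO against Con, edgeR adjusted p = 0.183). Ndufb2, at 10.7, 6.81 and 9.16 CPM in GKO, 3.98, 5.43 and 7.22 CPM in PIL and 7.49, 8.58 and 10.8 CPM in Con, had the lowest p of complex I in GKO against PIL (0.69 ± 0.27, edgeR adjusted p = 0.207). It had only 71 to 159 counts per library and, at 1.30 FPKM, the lowest level of the complex, and its exons overlap those of Braf, so its counts are uncertain.

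Of the assembly factors, which put complex I together without staying in it, Ndufaf1 came closest to the threshold. It had 28.4, 33.0 and 29.2 CPM in GKO, 21.1, 23.3 and 27.9 CPM in PIL and 29.0, 32.0 and 34.6 CPM in Con. The PIL libraries lay below all others, with a log2 fold change of -0.41 ± 0.14 against Con (edgeR adjusted p = 0.0955) and 0.33 ± 0.14 for GKO against PIL (edgeR adjusted p = 0.221). Over the 8 factors the median was -0.14 in PIL against Con, 0.05 in GKO against PIL and -0.03 in GKO against Con. In GKO against Con the lowest p was that of Ndufaf6, at 18.6 to 19.8 CPM in GKO and 21 to 25.5 CPM in Con, with 17.7 to 21.1 CPM in PIL.

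All 4 subunits of complex II are nuclear, which makes it the one complex without a mitochondrial gene. Sdha, its flavoprotein and an enzyme of the citric acid cycle as well, nevertheless had the pattern of the mitochondrial genes, with 939, 1041 and 952 CPM in GKO, 548, 701 and 953 CPM in PIL and 865, 804 and 1033 CPM in Con. PIL-1 and PIL-2 lay below every other library and PIL-3 among the GKO libraries. Its log2 fold change was 0.41 ± 0.20 in GKO against PIL (edgeR adjusted p = 0.262) and -0.30 ± 0.20 in PIL against Con (edgeR adjusted p = 0.356). They were 0.65 (edgeR adjusted p = 0.0279) and -0.54 (0.0422) without PIL-3, and 0.24 and -0.13 without PIL-1. The membrane anchor Sdhd, which has an NRF1, an ETS and an ERR match in the promoter printed above, was at 301, 344 and 299 CPM in GKO, 281, 279 and 323 CPM in PIL and 352, 335 and 346 CPM in Con. For Sdhd the PIL libraries lay below all Con libraries by a small margin (-0.23 ± 0.11, edgeR adjusted p = 0.226). The iron-sulphur protein Sdhb and the other anchor Sdhc ranged over 315 to 408 CPM and 326 to 404 CPM. All 4 were negative in PIL against Con (median -0.19) and positive in GKO against PIL (median 0.13).

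In complex III, the mitochondrial member is cytochrome b. mt-Cytb had 23803, 26479 and 22975 CPM in GKO, 12597, 16965 and 23534 CPM in PIL and 19981, 23853 and 23232 CPM in Con, and no copy of at least 99% identity was annotated for it. Its log2 fold change was 0.46 ± 0.23 in GKO against PIL (edgeR adjusted p = 0.272) and -0.34 ± 0.23 in PIL against Con (edgeR adjusted p = 0.363), and without PIL-3 it was 0.73 (0.0286) and -0.60 (0.0427). Without PIL-1 it was 0.26 (edgeR adjusted p = 0.657) and -0.15 (0.703). Uqcrfs1, the Rieske iron-sulphur protein, had 460, 511 and 453 CPM in GKO, 323, 340 and 454 CPM in PIL and 524, 497 and 525 CPM in Con. All PIL libraries were below all Con libraries, with -0.47 ± 0.15 for PIL against Con (edgeR adjusted p = 0.0799) and 0.35 ± 0.15 for GKO against PIL (edgeR adjusted p = 0.222). The core protein Uqcrc2 had 400, 442 and 403 CPM in GKO, 243, 293 and 412 CPM in PIL and 431, 374 and 450 CPM in Con. Without PIL-3 its log2 fold changes passed the test (-0.65 in PIL against Con, edgeR adjusted p = 0.0133, and 0.64 in GKO against PIL, 0.0190). Without PIL-1 they were -0.25 (edgeR adjusted p = 0.425) and 0.23 (0.664). The small subunit Uqcrq, with 251, 284 and 220 CPM in GKO, 314, 266 and 265 CPM in PIL and 273, 330 and 286 CPM in Con, did not share this order, and PIL-1 was the highest PIL library there.

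In complex IV, the 3 mitochondrial subunits form the catalytic core. mt-Co1, the subunit that reduces oxygen and the most abundant of all members, had 52351, 57082 and 51370 CPM in GKO, 25762, 36293 and 54013 CPM in PIL and 42414, 45639 and 50348 CPM in Con. All GKO libraries lay above all Con libraries, by 0.22 ± 0.26 on the log2 scale (edgeR adjusted p = 0.801), and PIL-3 lay among the GKO libraries. The error of that GKO and Con difference also carries the spread within PIL, where the SD was 14277 CPM, against 3054 in GKO and 3990 in Con. For mt-Co1 the log2 fold change in GKO against PIL was 0.47 ± 0.26 (edgeR adjusted p = 0.301). It was 0.80 (edgeR adjusted p = 0.0257) without PIL-3 and 0.24 (0.706) without PIL-1. In PIL against Con it was -0.25 ± 0.26 (edgeR adjusted p = 0.545), and -0.58 (0.0556) without PIL-3. mt-Co3 had 109, 195 and 137 CPM in GKO, 84.8, 129 and 120 CPM in PIL and 196, 177 and 185 CPM in Con. It had the lowest p of the mitochondrial genes in PIL against Con, -0.74 ± 0.22 (edgeR adjusted p = 0.0721, and between 0.0176 and 0.185 over 18 alternatives). mt-Co2, which takes up the electrons from cytochrome c, ranged over 211 to 246 CPM in GKO, 133 to 217 CPM in PIL and 197 to 211 CPM in Con. Both mt-Co2 and mt-Co3 lie in the stretch copied to chromosome 1, and 31.3% of the mt-Co1 transcript is matched there as well. Of the 17 nuclear subunits of complex IV, 10 were positive in PIL against Con and 5 in GKO against PIL, none called. Cox6a1, a small subunit among the highest nuclear members (988 FPKM), had 654, 726 and 639 CPM in GKO, 915, 765 and 644 CPM in PIL and 731, 892 and 690 CPM in Con. Here PIL-1 was the highest of all libraries, the reverse of its place for mt-Co1.

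Several subunits of complex IV come as a widely expressed form and a form restricted to certain tissues. Cox6b2, the form known from testis, was at 8.77, 9.23 and 4.48 CPM in GKO, 18.7, 15.5 and 6.77 CPM in PIL and 4.70, 4.63 and 6.09 CPM in Con. Every PIL library was above every Con library, and PIL-3 lay close to the highest Con library. With a log2 fold change of 1.41 ± 0.39 in PIL against Con it had the lowest adjusted p of all members in any comparison (edgeR adjusted p = 0.0589, and between 0.00353 and 0.174 over 18 alternatives, 3 of which passed). Against PIL, GKO kidneys had a log2 fold change of -0.87 ± 0.38 (edgeR adjusted p = 0.235). Its partner Cox6b1 was at 236 to 262 CPM in GKO, 247 to 292 CPM in PIL and 265 to 310 CPM in Con, so that Cox6b2 stayed far below it in every library. Cox8b, the form of heart, skeletal muscle and brown fat, had 0.343, 0.984 and 1.81 CPM in GKO, 14.3, 11.5 and 2.11 CPM in PIL and 0.220, 0 and 4.74 CPM in Con. PIL-1 and PIL-2 stood apart with 255 and 193 reads, and PIL-3, with 28 reads, lay below Con-3, with 70 reads. Its fold changes were accordingly imprecise, 2.47 ± 1.19 in PIL against Con (edgeR adjusted p = 0.209) and -3.15 ± 1.24 in GKO against PIL (edgeR adjusted p = 0.209). Without Con-3 the edgeR adjusted p for PIL against Con was 0.0387, and 2% of all genes were then called higher.

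Markers of the tissues in which Cox8b is usual were looked at beside it. Summed over 5 skeletal muscle markers, GKO had 0.669 to 1.78 CPM, PIL had 1.79 to 2.52 CPM and Con had 1.02 to 1.98 CPM. Summed over 7 fat markers, GKO had 40.9 to 66.1 CPM, PIL had 66.6, 82.5 and 49.6 CPM and Con had 69.1, 108 and 271 CPM. The fat sum was thus highest in Con-3, the Con library with the most Cox8b. Only 3 of the 7 fat markers passed the filter on low counts. These 3 were negative in PIL against Con (median log2 fold change -4.08, none called), which the sum does not show. The part of fat or muscle in the Cox8b values was not tested.

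The other restricted forms were low as well. Cox7a1, the heart and muscle form, was at 4.80, 5.75 and 5.42 CPM in GKO, 8.35, 7.69 and 7.52 CPM in PIL and 7.49, 8.81 and 7.18 CPM in Con. All GKO libraries lay below all others, with -0.56 ± 0.17 against PIL (edgeR adjusted p = 0.160) and -0.56 ± 0.17 against Con (edgeR adjusted p = 0.153), while PIL and Con overlapped. Its partner Cox7a2 was at 179 to 216 CPM in GKO, 176 to 196 CPM in PIL and 197 to 214 CPM in Con. Ndufa4l2, known to be induced by hypoxia, was at 6.31, 4.54 and 5.55 CPM in GKO, 9.30, 7.51 and 7.29 CPM in PIL and 5.80, 5.30 and 5.82 CPM in Con. All PIL libraries were above all others (0.51 ± 0.20 for PIL against Con, edgeR adjusted p = 0.135, and -0.56 ± 0.20 for GKO against PIL, edgeR adjusted p = 0.187). Its partner Ndufa4 was below Con in every GKO and PIL library, at 400 to 455 CPM in GKO, 393 to 436 CPM in PIL and 466 to 515 CPM in Con. Cox6a2, another muscle form, was at 0.685 to 1.21 CPM in GKO, 0.301 to 1.43 CPM in PIL and 1.69 to 3.09 CPM in Con. Cox4i2, the lung form, was at 0.548 to 1.07 CPM in GKO, 0.596 to 1.12 CPM in PIL and 0.271 to 1.79 CPM in Con. The partners Cox4i1, Cox7b and Cox8a ranged over 340 to 445 CPM, 203 to 272 CPM and 588 to 837 CPM. No restricted form passed the test in any comparison.

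**Figure D5:**
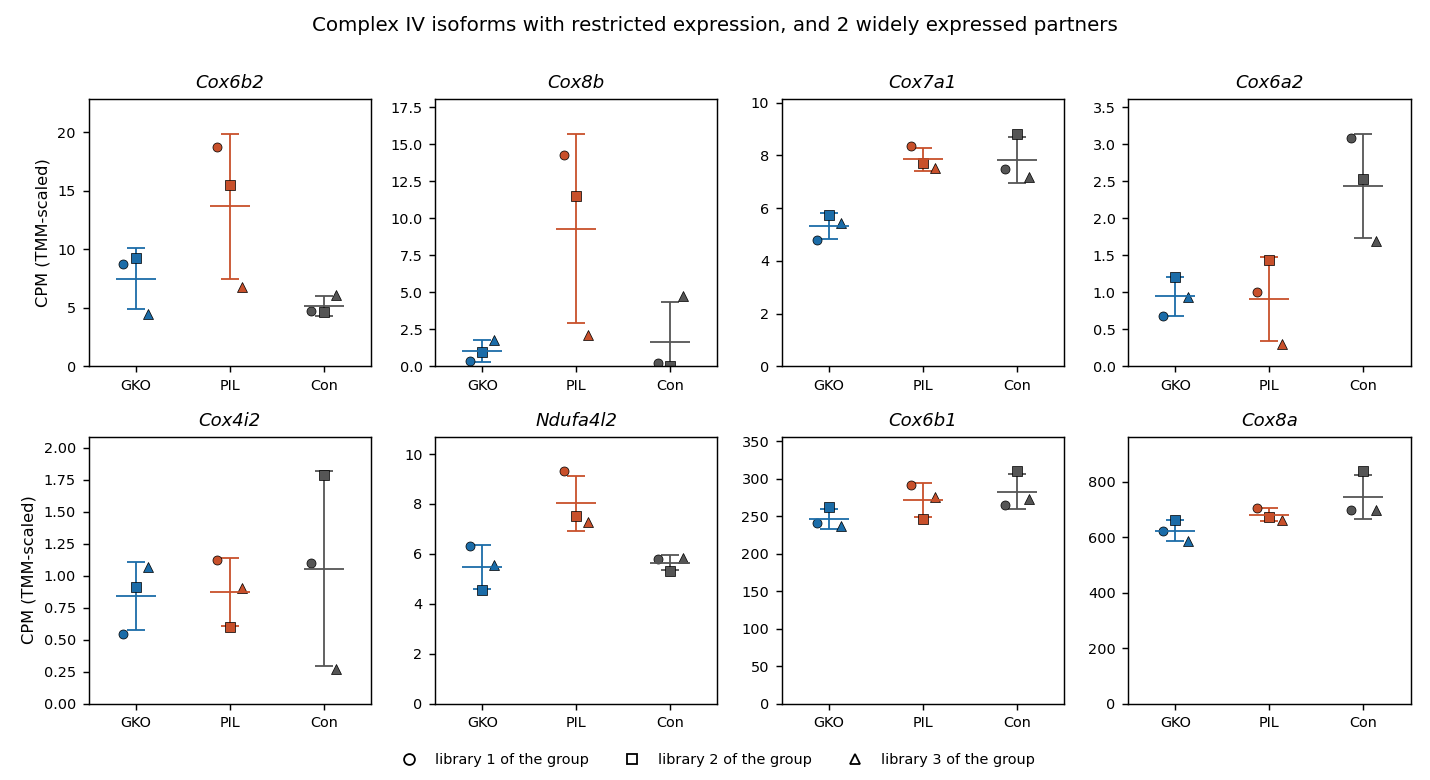
CPM of 6 restricted complex IV isoforms and of the widely expressed partners Cox6b1 and Cox8a in each library (linear axes from 0), with mean and SD of 3 libraries. Cox6b2 and Cox8b are highest in PIL-1 and PIL-2, Ndufa4l2 is highest in the PIL libraries, and Cox7a1 is lowest in the GKO libraries.

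In complex V, Atp5b, the catalytic beta subunit and the nuclear member with the most counts (by FPKM below Cox8a and Cox6a1), had 3349, 3610 and 3396 CPM in GKO, 2729, 2844 and 3382 CPM in PIL and 3826, 4029 and 3632 CPM in Con. All GKO and PIL libraries lay below all Con libraries (-0.36 ± 0.14 for PIL against Con, edgeR adjusted p = 0.138, and -0.15 ± 0.14 for GKO against Con, edgeR adjusted p = 0.719). Atp5pb, a subunit of the peripheral stalk, showed the same order of groups, at 546, 589 and 562 CPM in GKO, 451, 457 and 568 CPM in PIL and 642, 621 and 647 CPM in Con (-0.37 ± 0.13 for PIL against Con, edgeR adjusted p = 0.0966). The small membrane subunit Atp5k had the lowest p of the nuclear complex V genes in GKO against PIL, with 25.5, 27.2 and 22.1 CPM in GKO, 33.3, 27.7 and 28.8 CPM in PIL and 25.1, 33.4 and 27 CPM in Con (-0.27 ± 0.15, edgeR adjusted p = 0.299). Another small subunit, Atp5j2, was at 217 to 247 CPM in GKO, 231 to 271 CPM in PIL and 246 to 295 CPM in Con. Of the mitochondrial genes, mt-Atp6, the subunit of the proton channel, had 68.4, 213 and 112 CPM in GKO, 56.2, 60.3 and 72.3 CPM in PIL and 86.5, 78.4 and 95.5 CPM in Con. GKO-2 alone made most of the GKO mean. Its 1.06 ± 0.34 in GKO against PIL had the lowest p of the mitochondrial genes in that comparison (edgeR adjusted p = 0.166).

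The nuclear subunits that resembled the mitochondrial genes, such as Sdha, Ndufs1 and Uqcrc2, are among those with long gene models, and Cox6a1, with PIL-1 highest, has a short one. Ordered by the length of the gene model, the 27 longest nuclear subunits (2178 to 8086 bases) had a median log2 fold change of -0.15 in PIL against Con, with 21 of 27 negative. The 27 shortest (360 to 1108 bases) had a median of -0.02 with 14 negative. In GKO against PIL, 21 of the 27 longest were positive (median 0.09) and 5 of the 27 shortest (median -0.14). Across the 82 genes, Spearman's correlation of fold change with length was -0.37 in PIL against Con, 0.54 in GKO against PIL and 0.25 in GKO against Con. Over all 14069 genes it was -0.21, 0.27 and 0.06 in the same comparisons. Genes are not independent replicates and the comparisons share libraries, so these are descriptions. RNA quality was not measured in the files, and the part of transcript length in the differences between genes was not tested.

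Other genes around the respiratory chain were taken from lists of the pathway. Cycs, cytochrome c, which carries electrons between complexes III and IV, had 244, 287 and 253 CPM in GKO, 212, 217 and 280 CPM in PIL and 487, 378 and 395 CPM in Con. All GKO and PIL libraries lay below all Con libraries. It fell in PIL against Con by 0.83 ± 0.15 on the log2 scale (edgeR adjusted p = 0.0166) and in GKO against Con by 0.68 ± 0.15 (edgeR adjusted p = 0.0487). The second call is marginal, since 12 of 18 alternatives took the adjusted p above 0.05, up to 0.212 without GKO-1. The first was lost without Con-1 (0.0680), without PIL-2 (0.0752) and with only the 6 libraries compared (0.0762). In GKO against PIL the difference was 0.14 ± 0.15 (edgeR adjusted p = 0.563). With the gene of cytochrome c1, the other member of its list, the median was -0.47 in PIL against Con and -0.42 in GKO against Con. Both genes were negative there, and only Cycs was called lower, where 3.14% and 1.46% of all genes were. Only Con held Y-linked counts, so these differences from Con cannot be told apart from a difference in sex.

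Of 8 enzymes and proteins that feed electrons to ubiquinone by other routes, 0 were called higher and 3 lower in PIL against Con (4.48% and 3.14% of all genes), and 0 were called in the other comparisons. The calls against Con cannot be told apart from a difference in sex here either. Chdh, choline dehydrogenase, had 239, 251 and 272 CPM in GKO, 156, 205 and 200 CPM in PIL and 446, 327 and 380 CPM in Con. It fell in PIL by 1.04 ± 0.15 against Con (edgeR adjusted p = 0.00786, and 0.0552 with only the 6 libraries compared). Gpd2, the mitochondrial glycerol 3-phosphate dehydrogenase, had 47.8, 53.2 and 51.6 CPM in GKO, 19.6, 28.7 and 32.0 CPM in PIL and 75.2, 48 and 64.4 CPM in Con. It fell in PIL by 1.23 ± 0.21 against Con (edgeR adjusted p = 0.0121, and 0.0535 without Con-1 and 0.0632 with only the 6 libraries compared). Etfa, a subunit of the flavoprotein that takes electrons from fatty acid oxidation, had 345, 377 and 325 CPM in GKO, 220, 273 and 294 CPM in PIL and 361, 377 and 403 CPM in Con. It fell in PIL by 0.54 ± 0.13 against Con (edgeR adjusted p = 0.0442), a call that 11 of 18 alternatives lost, among them leaving out any library but PIL-3. For these 3 genes all PIL libraries lay below all GKO libraries, with 0.44 ± 0.15 for Chdh, 0.93 ± 0.21 for Gpd2 and 0.41 ± 0.13 for Etfa in GKO against PIL, and edgeR adjusted p-values of 0.183, 0.127 and 0.171.

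None of the other lists of mitochondrial function had a gene called by edgeR. Of the 13 citric acid cycle genes, all were negative in PIL against Con (median -0.34) and 12 were positive in GKO against PIL (median 0.21). Of 15 tested genes of mitochondrial DNA maintenance and transcription, 14 were negative in PIL against Con (median -0.17) and 14 positive in GKO against PIL (median 0.16). Among 11 coactivators and regulators the medians were -0.28 and 0.43. Ppargc1a, a coactivator of mitochondrial biogenesis, was at 96.4, 98 and 89.9 CPM in GKO, 30.3, 53.6 and 78.3 CPM in PIL and 84.8, 91.8 and 95.9 CPM in Con. All PIL libraries lay below all others, with 0.81 ± 0.27 for GKO against PIL (edgeR adjusted p = 0.175) and -0.75 ± 0.27 for PIL against Con (edgeR adjusted p = 0.116). These were 1.18 (edgeR adjusted p = 0.0113) and -1.12 (0.00813) without PIL-3, and 0.52 and -0.47 without PIL-1. The assembly factors of complexes III and IV, 22 of them tested, had medians of -0.13 in PIL against Con and -0.0044 in GKO against PIL, and those of complexes I, II and V outside the name pattern (14 genes) had medians of -0.13 and 0.04. Genes of the outer membrane and the carriers (9 genes) had medians of -0.06 and 0.05, those of mitophagy and fission (11 genes) -0.17 and 0.16, and those of defence against reactive oxygen (8 genes) -0.22 and 0.01. Ucp2, the uncoupling protein known from leukocytes and other tissues, ran the other way, at 107, 90.003 and 82.5 CPM in GKO, 291, 203 and 118 CPM in PIL and 129, 170 and 104 CPM in Con. All PIL libraries were above all GKO libraries (-1.13 ± 0.30 for GKO against PIL, edgeR adjusted p = 0.134).

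Among the PIL libraries, the summed tubule markers had the order of the mitochondrial genes. The summed leukocyte and smooth muscle markers had the reverse order. In PIL-1, PIL-2 and PIL-3 the proximal tubule sum without Kap, the most abundant of its genes, was 8315, 12702 and 17811 CPM, against 18086 to 20904 CPM in GKO and 12801 to 16676 CPM in Con. The 6 markers of the thick ascending limb and distal tubule came to 2741, 4575 and 6985 CPM in those PIL libraries, against 6044 to 6689 CPM in GKO and 4793 to 5712 CPM in Con. Of the 10 proximal tubule markers, 4 were positive and 6 negative in PIL against Con, with 1 called higher and 1 lower. Of the 6 thick ascending limb and distal tubule markers, 3 were positive and 3 negative, with 1 called higher. Over all genes 4.48% were called higher and 3.14% lower. Leukocyte markers, given above, were highest in PIL-1 and lowest in PIL-3 within the group. All 6 were positive in PIL against Con, 5 of them called higher, against 4.48% of all genes. Collecting duct markers varied less within PIL, at 627 to 692 CPM, against 628 to 721 CPM in GKO and 624 to 1388 CPM in Con, and those of vascular smooth muscle and pericytes were at 247 to 262 CPM in GKO, 310 to 449 CPM in PIL and 245 to 353 CPM in Con. The part of these markers in the mitochondrial sums was not tested.

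Some nuclear members share sequence with other annotated genes, which makes their counts uncertain. At 99% identity or more over at least 100 bases, Atp5l was matched over 57.4% of its transcript, Ndufs5 over 46.9%, Cox5b over 45.1%, Ndufb4 over 40.2%, Ndufa12 over 36.2% and Cox7c over 32.9%. The row named Cox5b-ps is matched over its whole length by Cox5b. The other nuclear genes given with values in each library had no such match, but the exons of Ndufs1, Uqcrc2, Atp5pb, Ndufa4l2 and Ndufb2 overlap those of other annotated genes, and reads there may have been counted for either or for neither.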

How the data were processed

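Total RNA was extracted with TRIzol and sequenced as paired-end reads. Per the labels, the authors used HISAT2 (TopHat2 is also named) for alignment to mm10 and counted them per gene with HTSeq, and the versions are not given in the sources used here. The deposited table holds whole read counts per gene and library, and FPKM values that the authors computed from them, which are relative to gene length and library depth. Counts were used for every test and FPKM only to compare levels between genes.

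The members and gene lists were chosen with earlier results of these data known. Genes were filtered with filterByExpr, scaled by TMM and fitted over all 9 libraries with robust quasi-likelihood in edgeR 4.0.16 (R 4.3.3), and p-values were adjusted by the Benjamini-Hochberg method over 14069 genes. Calls are adjusted p-values under 0.05. CPM used TMM-scaled library sizes of 13311063 to 16299328 counts before scaling. The fit was tested on simulated counts with the same spread setting for every gene and group. That test does not cover groups of unequal spread, as PIL and GKO are here. Alternatives used DESeq2 1.42.0, limma 3.58.1 (voom with sample quality weights), other scaling and filters, a replicate block, 6-library fits and leave-one-out fits. Copies were found with BLAST 2.17.0 on GENCODE M21.

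Named genes were all mitochondrial ones, the gene of lowest p per complex, class and comparison (up to 3 in each direction where any were called), the tissue-restricted isoforms with their partners and up to 2 genes per further list and comparison. Sdha, Atp5b, Ndufs1, Uqcrc2, Cycs, Chdh, Gpd2, Etfa, Ppargc1a and Ucp2, and genes in lists of calls, were also named after their values were seen. Replicate numbers were not used to pair libraries, except in the replicate block. Columns of other samples numbered 0.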

Additional observations from a re-analysis of the deposited data

How the results depend on the processing

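Counts of called members depended on the tool and on the PIL libraries. Against 0 by edgeR in each comparison, DESeq2 called 1 higher and 8 lower in PIL against Con and 1 higher in GKO against PIL, and limma-voom with quality weights called 13 higher and 31 lower, 24 higher and 12 lower, and 6 lower in GKO against Con. Against 105 members tested, these counts stand beside 8.41%, 6.18% and 1.12% of all genes for DESeq2, and 22.8%, 21.4%, 23%, 22.8% and 7.46% for limma-voom. Leaving out 1 library at a time gave 0 to 1 higher and 0 to 21 lower in PIL against Con, and 0 to 15 higher and 0 to 1 lower in GKO against PIL. The upper ends came without PIL-3, where 13.3% and 12.4%, and 10.1% and 12.2%, of all genes were called, except that leaving out Con-3 also gave 1 higher (2%) in PIL against Con. Scaling without mitochondrial genes gave mitochondrial sums of 149083 CPM in GKO and 139870 in Con, and nuclear sums of 24881 in GKO, 23481 in PIL and 26660 in Con. Without the most abundant gene of each genome the mitochondrial sums were 78148 in GKO, 57930 in PIL and 76826 in Con, the nuclear sums 18536, 17856 and 19605 in the same order, and the log2 ratios 2.08, 1.64 and 1.97. Scaling without mitochondrial genes leaves their counts out of the library sizes, which raises the CPM of the other genes as well. The sums without the most abundant genes hold fewer genes. Any further cause of these changes was not tested.

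Of 138 fold changes followed for 46 genes, 25 changed sign under at least 1 alternative, all of them small or imprecise. In PIL against Con, Cox7a1 became -0.0046 with RLE scaling, -0.0085 without mitochondrial genes in the scaling, -0.0081 without a filter, -0.0072 by DESeq2 and -0.0045 with 6 libraries, and Cox6a1 -0.0038, -0.0086, -0.0082, -0.0087 and -0.0042 under the same settings. Under limma-voom, Cox4i2 became 0.33 and Cox6a2 -0.58 in GKO against PIL, and mt-Nd1 0.048, mt-Nd3 0.11, Ndufb2 0.17 and Cox8b 1.57 in GKO against Con. Under upper-quartile scaling, Cox6a2 became -0.0071 in GKO against PIL, and Ndufb2 0.024 and Uqcrc2 0.023 in GKO against Con. The leave-one-out ranges in PIL against Con were -0.057 to 0.094 for Cox7a1, -0.018 to 0.20 for Atp5k, -0.16 to 0.0063 for Uqcrq, -0.14 to 0.0046 for Atp5j2, -0.73 to 0.35 for Cox4i2, -0.12 to 0.0065 for Cox6b1 and -0.13 to 0.12 for Cox6a1. In GKO against PIL they were -0.13 to 0.82 for mt-Nd3, -0.028 to 0.11 for Ndufaf6, -0.28 to 0.18 for Cox4i2, -0.36 to 0.47 for Cox6a2, -0.10 to 0.013 for Cox7b and -0.052 to 0.076 for Cox7a2. In GKO against Con they were -0.15 to 0.027 for mt-Nd1, -0.30 to 0.054 for mt-Nd3, -0.11 to 0.24 for mt-Nd5, -0.066 to 0.058 for mt-Nd6, -0.39 to 0.012 for mt-Nd4l, -0.16 to 0.15 for Ndufb2, -0.77 to 0.30 for Cox4i2, -1.35 to 3.14 for Cox8b, -0.035 to 0.13 for Cox4i1, -0.16 to 0.071 for Ndufa4l2, -0.21 to 0.0073 for Ndufs1 and -0.086 to 0.044 for Uqcrc2.

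Between libraries with the same replicate number, deviations from the group mean had correlations of -0.14 to 0.29. Those between different numbers were not set beside them, so whether the numbers pair libraries cannot be told from these values. With the replicate block 0 members were called in any comparison, Ndufb2 became 0.0070 in GKO against Con, and Etfa in PIL against Con (edgeR adjusted p = 0.0533) and Cycs in GKO against Con (edgeR adjusted p = 0.0958) lost their calls. Depth limits mt-Nd3, mt-Nd4l, Cox8b, Cox6a2 and Cox4i2 most, mt-Atp8 could not be tested, and the filter of at least 10 counts in every library left no value for genes below it, such as Cox8b.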
